A study of Mus musculus and Homo sapiens with 4 samples.

Results

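Ribosome profiling counts were examined for 2713 mouse transcript rows that lie in blocks of identifier numbers taken as those of imported small RNAs (snRNA, snoRNA, miRNA and others). The rows were chosen by the digits of their Ensembl transcript identifier, from ENSMUST00000082424 to ENSMUST00000084012 (the first block), from ENSMUST00000084014 to ENSMUST00000084200 (the short block) and from ENSMUST00000157000 to ENSMUST00000158999 (the late block). The rule uses identifiers and the listing of a coding region, not read numbers. It was set with earlier results of these data known. Rows with a counted coding region were not taken, and 2 further identifiers were left out by the same rule. The 2713 rows are part of 49523 rows without a coding region and of 93380 mouse rows in all. They are called block rows here.

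Ribosome profiling sequences short RNA fragments that survive nuclease digestion of a cell lysate, in order to count the pieces of messenger RNA shielded by a ribosome. The study asked whether true footprints shift between elongation inhibitors, and both mouse libraries come from E14 mouse embryonic stem cells, a line of 129/Ola background grown without feeder cells and with the cytokine LIF. One library was made after 60 s with emetine, at a dose the labels do not state, and the other after 60 s with cycloheximide at 100 µg/ml. Each group has 1 library, nothing in the labels says whether both came from the same culture, and no untreated library was analysed here. No test of the inhibitors can be made, no p-value is given, and every comparison is between 2 libraries. The study's HEK libraries were not used here.

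Small structured RNAs are made without being translated. Small nuclear RNAs (snRNAs) form the core of the spliceosome, small nucleolar RNAs (snoRNAs) guide the chemical modification of ribosomal RNA and snRNAs, and microRNAs (miRNAs) guide silencing of messages. Most of them work inside tight complexes with proteins, and such complexes can also leave fragments after nuclease digestion. Cycloheximide and emetine both stop elongating ribosomes, cycloheximide by binding the large and emetine by binding the small ribosomal subunit.

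The class of each row could not be checked. The files pair no identifier with a gene name or RNA class, and the name tables that were used list none of these identifiers. No sequence or position is given for that reason. Identifiers are printed for the extreme rows, and the others are described by rank and counts. The blocks were not pure at their edges. Of 2758 rows with an identifier number in the blocks, 45 had a coding region. Of these 45, 9 lay at the start of the first block, before its first block row, 27 ran through the short block and 9 lay at the start of the late block, up to ENSMUST00000157067. The block rows interspersed with coding rows, in the short block and at the start of the late block, are given apart below.

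The reads counted for all mouse transcripts summed to 188700177 with emetine and 342552347 with cycloheximide. Transcripts of one gene overlap and the counting rule is unknown, so these sums were not taken as numbers of separate reads. The scale was set by coding regions: over 28603 of them with at least 100 summed reads the median log2 ratio is 0. By this measure the cycloheximide library was 1.76-fold deeper. A ratio is always emetine over cycloheximide, and log2 ratios were taken after adding 0.5 scaled reads. Intervals are exact (Clopper-Pearson) 95% counting intervals. They cover counting error only, since amplified copies of one fragment are not independent molecules.

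Most block rows had no reads, but the ones with reads were often abundant. No read was counted in either library for 1608 of them (59.3%), against 17.4% of the 46810 other rows without a coding region. A further 333 block rows had 1 to 29 summed reads. The remaining 772 (28.5%) had 30 or more, the minimum for a ratio, compared with 68.6% of the other rows. Of these 772, 199 (25.8%) reached 10000 summed reads, and 10.2% of the other rows that passed the minimum did. Reads in the emetine library alone were found for 42 block rows, with at most 22 reads each. Another 112 had reads in the deeper cycloheximide library alone, with at most 25. Of the 46810 other rows, 458 had reads in the emetine library alone and 3024 in the cycloheximide library alone.

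Block rows held 13290202 reads with emetine and 14210156 with cycloheximide. That was 14.5% of the reads of all rows without a coding region with emetine and 9.37% with cycloheximide. As a share of all transcript counts it was 7.04% with emetine and 4.15% with cycloheximide. On the coding-region scale the summed reads of block rows were 1.64-fold higher with emetine. The summed reads of the other rows without a coding region differed between the libraries by 0.00011 on the log2 scale, and those of coding regions were 0.848-fold. In these bulk libraries, more of an RNA per cell, more cells that hold it and better recovery of its fragments cannot be told apart.

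The ratios of the 772 block rows with enough reads were centred near 2-fold. Their median log2 ratio was 0.99, a level 1.98-fold higher with emetine, with quartiles at 0.56 and 1.2. The other 32117 rows without a coding region had a median of 0.080 with quartiles at -0.26 and 0.44, which is 0.91 lower. The 31719 coding regions with 30 or more reads had a median of 0.0033. A ratio above 0 was found for 700 block rows (90.7%), against 56.2% of the other rows and 50.2% of coding regions. The Spearman correlation of the counts of the libraries was high in each class, at 0.985 across block rows, 0.979 across other rows and 0.988 across coding regions. Rows share libraries and are not independent.

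**Figure D1:**
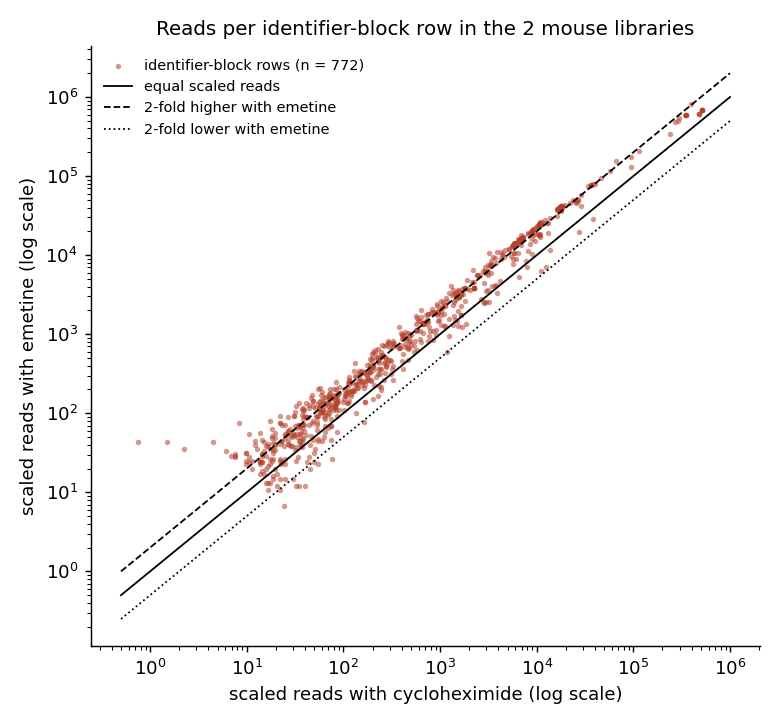
Scaled reads with emetine (vertical, log scale) against scaled reads with cycloheximide (horizontal, log scale) for the 772 block rows with at least 30 summed reads, 1 point per row. Lines mark equal scaled reads and 2-fold differences, and 700 points lie above the line of equality.

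At least 2-fold higher with emetine were 374 of the 772 block rows (48.4%). The same call was made for 6.52% of the other rows without a coding region, 2.92% of coding regions and 5.25% of all 64608 features compared. At least 2-fold lower with emetine were 11 block rows (1.42%), against 3.44% of the other rows, 2.98% of coding regions and 3.19% of all features. Since the median lay almost on the 2-fold line, 283 block rows had a log2 ratio between 0.8 and 1.2, and the count depends on where the line is put. It was 571 at 1.5-fold and 11 at 4-fold. No share at 1.5-fold is given for the other classes. The upper quartile of the log2 ratio, 0.44 for other rows and 0.30 for coding regions, lay under that line. At 4-fold the shares were 0.467% of the other rows and 0.395% of all features. The counting interval lay wholly above 2-fold for 245 of the 374, and included 2-fold for the other 129. It lay wholly above equality for 632 of the 772 (81.9%) and wholly below for 36 (4.66%). Among the other rows the interval lay above equality in 38.4% and below in 29.2%, and among all features in 37.0% and 31.5%.

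**Figure D2:**
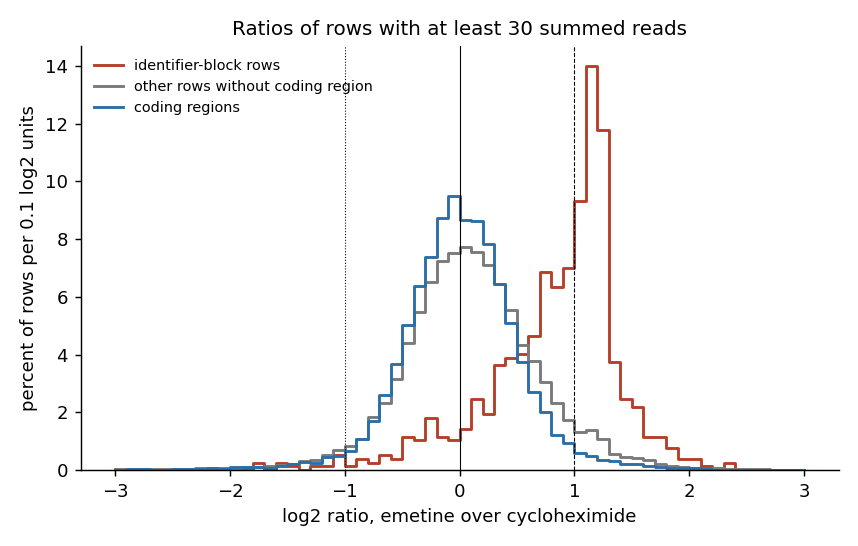
Percent of rows per 0.1 log2 units of the ratio of emetine over cycloheximide, for block rows, other rows without a coding region and coding regions with at least 30 summed reads. The tallest step of the block rows spans 1.1 to 1.2 and holds 14.0% of them, to the right of the dashed 2-fold line, while both other classes peak near 0.

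The difference from the other rows was present at every abundance and larger among abundant rows. From 30 to under 100 summed reads, the median log2 ratio was 0.79 for 142 block rows and 0.22 for 3679 other rows. From 100 to under 300 reads it was 0.83 for 136 block rows and 0.24 for 5048 other rows. From 300 to under 1000 reads it was 0.83 for 117 block rows and 0.21 for 7813 other rows. The gap in these 3 bins was between 0.56 and 0.63. From 1000 to under 10000 reads the median was 0.96 for 178 block rows and 0.034 for 12316 other rows, a gap of 0.92. From 10000 to under 100000 reads it was 1.19 for 168 block rows and -0.25 for 3025 other rows, a gap of 1.44. The 31 block rows with 100000 or more reads had a median of 0.79, and the 236 other rows of that size -0.43, a gap of 1.22. The other rows and the coding regions declined with abundance and block rows did not: the Spearman correlation of the ratio with summed reads was 0.17 over block rows, -0.23 over other rows and -0.16 over coding regions, as a description across rows.

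**Figure D3:**
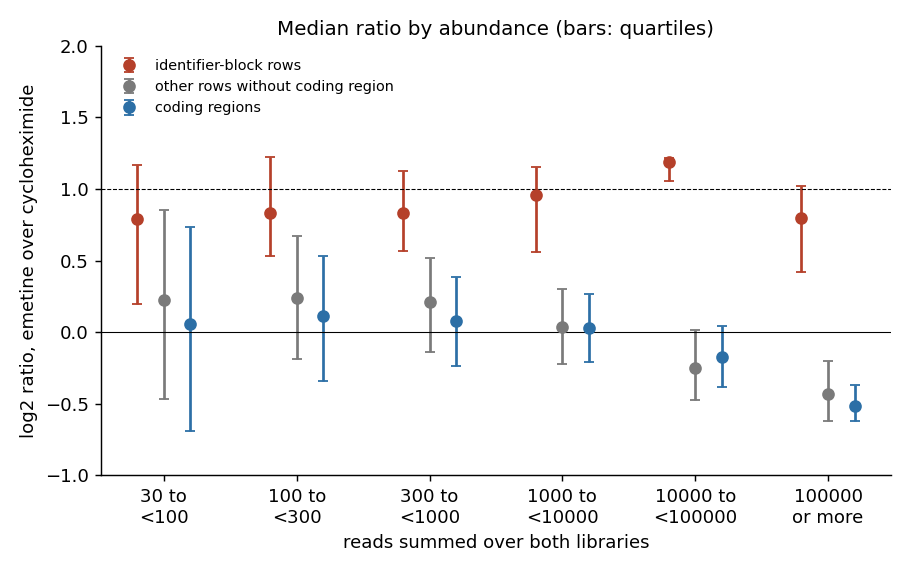
Median log2 ratio of emetine over cycloheximide (points) with quartiles (bars) in 6 bins of summed reads, for block rows, other rows without a coding region and coding regions. Block rows lie highest in every bin, at 1.19 from 10000 to under 100000 reads, where the other rows lie at -0.25.

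Block rows were a large part of the abundant rows without a coding region that were higher with emetine. Of 270 rows without a coding region that had 10000 to under 100000 reads and were at least 2-fold higher, 129 (47.8%) were block rows, which formed 5.26% of all rows in that bin. They were 76.8% of the 168 block rows there, against 4.66% of the other rows. Of the 141 remaining rows, 90 (63.8%) had the same pair of counts as some block row of that bin when both counts were rounded to 2 significant digits. Such a match was found for 120 of all 3025 other rows of that bin, and 51 of the higher ones had none. The median log2 ratio was 1.19 for other rows with a match and -0.26 for those without. Rows that match in this way must have nearly the same ratio, so the match describes near-equal counts and does not test the ratio. By the same rounding the 168 block rows of that bin formed only 92 different pairs, and each row is counted singly here. At 100000 or more reads, 9 of the 24 higher rows (37.5%) were block rows, which formed 11.6% of rows there. That was 29.0% of the block rows of that size, against 6.36% of the other rows. From 1000 to under 10000 reads they were 81 of 280 higher rows (28.9%) and 1.42% of all rows without a coding region. In the bins below that, their part of the higher rows was lower in absolute terms but above their share of rows. It was 6.91% against 3.72% of rows from 30 to under 100 reads, 9.12% against 2.62% from 100 to under 300, and 9.0% against 1.48% from 300 to under 1000.

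The most abundant block rows fell into sets with almost the same counts. The 6 leading rows had 514485 to 522887 reads with emetine and 676920 to 687508 with cycloheximide, and their log2 ratios all lay between 0.41 and 0.42. The leading row itself had 522887 reads with emetine and 687289 with cycloheximide, 1.34-fold higher with emetine (interval 1.33 to 1.34). Rows 8 to 10 by abundance had 459259 to 463677 reads with emetine and 632739 to 639845 with cycloheximide, and a log2 ratio of 0.35 in each. These 9 rows were the only ones of the leading 10 under 2-fold.

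Row 7 stood apart from its neighbours. It had 612138 reads with emetine and 520958 with cycloheximide, 2.06-fold higher with emetine (interval 2.06 to 2.07), and was the block row with most reads in the emetine library. Rows 11 to 15 had 450765 to 453123 reads with emetine and 457095 to 459188 with cycloheximide, and a log2 ratio of 0.79 in each. Rows 16 to 18 were close to these, with log2 ratios from 0.78 to 0.85. Rows 23 to 31 had 55693 to 117282 reads with emetine and 45157 to 88643 with cycloheximide. Their log2 ratios ran from 0.97 to 1.22, and 8 of these 9 were at least 2-fold higher. All 31 rows lay above 0, from 0.35 to 1.22.

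**Figure D4:**
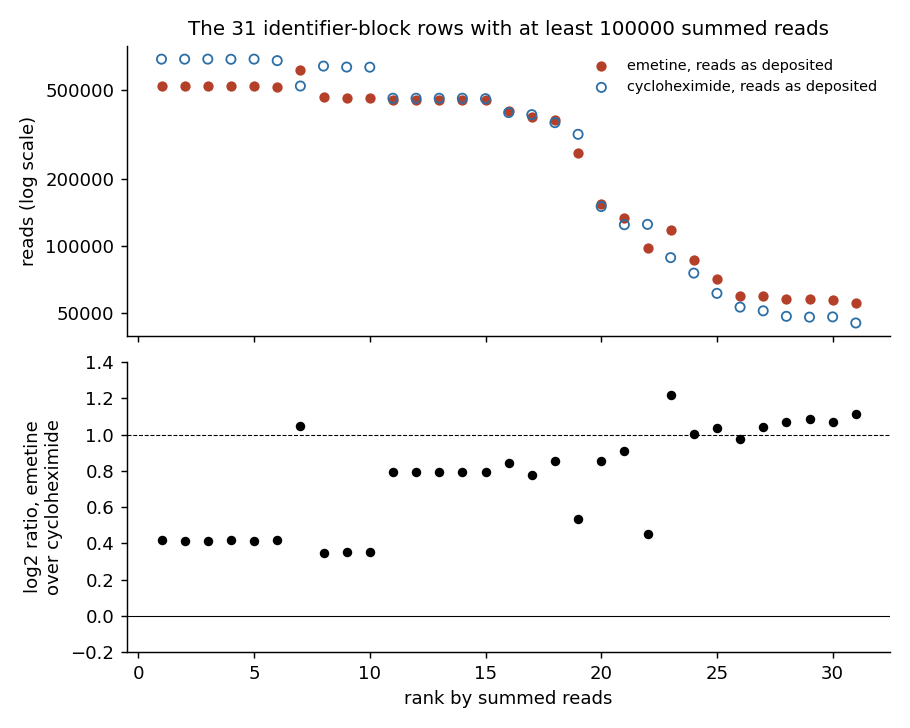
Upper panel, deposited reads (log scale) with emetine (filled) and cycloheximide (open) of the 31 block rows with at least 100000 summed reads, in order of abundance. Lower panel, their log2 ratio of emetine over cycloheximide: runs of rows share one level, near 0.42 for rows 1 to 6 and 0.79 for rows 11 to 15.

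A few rows held most of the reads. The 10 leading rows took 38.5% of the block rows' reads with emetine and 46.0% with cycloheximide, and the 31 leading rows took 73.7% with emetine and 78.9% with cycloheximide. As a sum the 10 leading rows were 1.38-fold higher with emetine, and all other block rows 1.87-fold. The summed ratio of the block rows, 1.64-fold, was lower than the ratio of their median row, 1.98-fold. The sum without the 10 leading rows also lay under that median.

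Near-equal counts went on below the leading rows, and one ratio recurred. Both counts rounded to 2 significant digits, the 772 rows formed 637 different pairs, and 203 rows shared their pair with at least one more. Counts under 100 are unchanged by this rounding, so rows with few reads can share a pair of small whole numbers. No like count is given for the other classes, so the 203 are not set against a background. The largest set had 20 rows, with 30610 to 31376 reads with emetine and 23524 to 24367 with cycloheximide. Their log2 ratios lay between 1.18 and 1.2. The second set had 12 rows of lower abundance, with 18134 to 18420 reads with emetine and 13862 to 14438 with cycloheximide. Their ratios lay between 1.15 and 1.21. A set of 5 rows with 11767 to 12208 reads with emetine and 8955 to 9007 with cycloheximide lay between 1.21 and 1.26. These sets of different abundance thus had nearly one ratio. A log2 ratio from 1.1 to 1.3, a range set around the ratios of these sets, was found for 199 of the 772 rows. It was found for 114 of the 168 from 10000 to under 100000 reads (67.9%). Of the other rows there, 4.66% had a log2 ratio of 1 or more, so at most that share lay from 1.1 to 1.3. For coding regions there the like limit was 0.0919%. From 1.1 to 1.2 lay 14.0% of all block rows compared, 1.38% of the other rows without a coding region and 0.489% of coding regions. From 1.2 to 1.3 the shares were 11.8%, 1.07% and 0.369%.

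Some sets lay lower. Besides rows 11 to 15, a set of 6 rows with 2890 to 2906 reads with emetine and 2957 to 2990 with cycloheximide had ratios between 0.77 and 0.78. A set of 5 with 13638 to 14157 reads with emetine and 13647 to 14240 with cycloheximide lay between 0.77 and 0.86. A log2 ratio from 0.7 to 0.9, likewise a range set around these sets, was found for 102 of the 772 rows (13.2%). It was found for 14 of the 168 from 10000 to under 100000 reads (8.33%), with no like share given for the other classes there. Both counts were lower than from 1.1 to 1.3. From 0.7 to 0.8 lay 6.87% of all block rows compared, 3.06% of the other rows without a coding region and 2.02% of coding regions. From 0.8 to 0.9 the shares were 6.35%, 2.33% and 1.23%. The sets were formed on the counts, so that rows in a set have like ratios by construction. No source used here says how reads that match several places were counted. Whether the rows of a set hold the same reads was not tested. With each pair counted once, 283 of 637 were at least 2-fold higher and the median log2 ratio was 0.93.

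The identifier blocks differed in how many rows had reads. Of 1010 rows in the first block, 583 (57.7%) had 30 or more reads, and they include 31 of the 31 leading rows. Of 1695 rows in the late block, 181 (10.7%) did, and 1378 (81.3%) had none. The first block held 96.1% of the block rows' reads and the late block 3.20%. The median log2 ratio was 1.05 in the first block, where 315 rows were at least 2-fold higher and 6 lower. In the late block it was 0.79, with 59 higher and 5 lower.

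Part of the difference between these medians lay at the start of the late block, where coding rows are interspersed. Up to ENSMUST00000157067 it held 58 block rows, of which 42 had 30 or more reads. Their median log2 ratio was 0.092, and 2 were at least 2-fold higher. Low ratios did not end with that stretch. For rows with enough reads from ENSMUST00000157070 to ENSMUST00000157079, log2 ratios ran from -0.57 to 0.71. The 1637 rows of the late block beyond that stretch had 139 with enough reads, a median of 0.93 and 57 at least 2-fold higher (41.0%). At matched abundance these late rows were not always the lower ones. With 30 to under 100 reads the median log2 ratio was 0.73 for 108 rows of the first block and 0.97 for 32 late rows beyond the stretch. With 100 to under 300 reads it was 0.86 for the first block and 0.77 for such late rows. With 300 to under 1000 reads it was 0.93 for the first block and 0.78 for such late rows. With 1000 to under 10000 reads it was 1.04 for 126 rows of the first block and 0.95 for 31 such late rows. With 10000 to under 100000 reads it was 1.19 for 144 rows of the first block and 0.96 for 17 such late rows.

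The short block ran the other way. All 8 of its rows had enough reads, with 620 to 21300 reads with emetine and 1000 to 50060 with cycloheximide. The median log2 ratio was -0.31, the range -0.82 to 0.20, and none was 2-fold different. Of 494 block rows with 300 or more reads 29 lay below 0, and 20 of these were in the stretches with coding rows. At the lower minimum of 30 reads, those stretches held 42 late rows and the 8 short-block rows. How many of them had 300 or more reads is not given, so the 20 are not a share of these. Of the other rows without a coding region, 66.0% lay above 0 from 300 to under 1000 reads and 53.5% from 1000 to under 10000. From 10000 to under 100000 reads 25.9% of them did, and at 100000 or more 16.1%. Without both stretches, a choice made after the values were seen, 372 of 722 rows (51.5%) were at least 2-fold higher and the median was 0.94 above that of the other rows.

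Within the first block the ratio hardly moved with the identifier number. In its first 8 steps of 200 identifier numbers, which take in all but its last few rows, the median log2 ratio ran from 0.94 to 1.09, and 43.8% to 68.2% of rows had 30 or more reads. In the last 8 steps of the late block the medians ran from 0.90 to 1.09, while 3.47% to 10.5% of rows had enough reads. The step just before these 8 also lies beyond the stretch with coding rows, and its median was lower, at 0.57. It had 13 rows with enough reads, of which 4 were at least 2-fold higher.

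**Figure D5:**
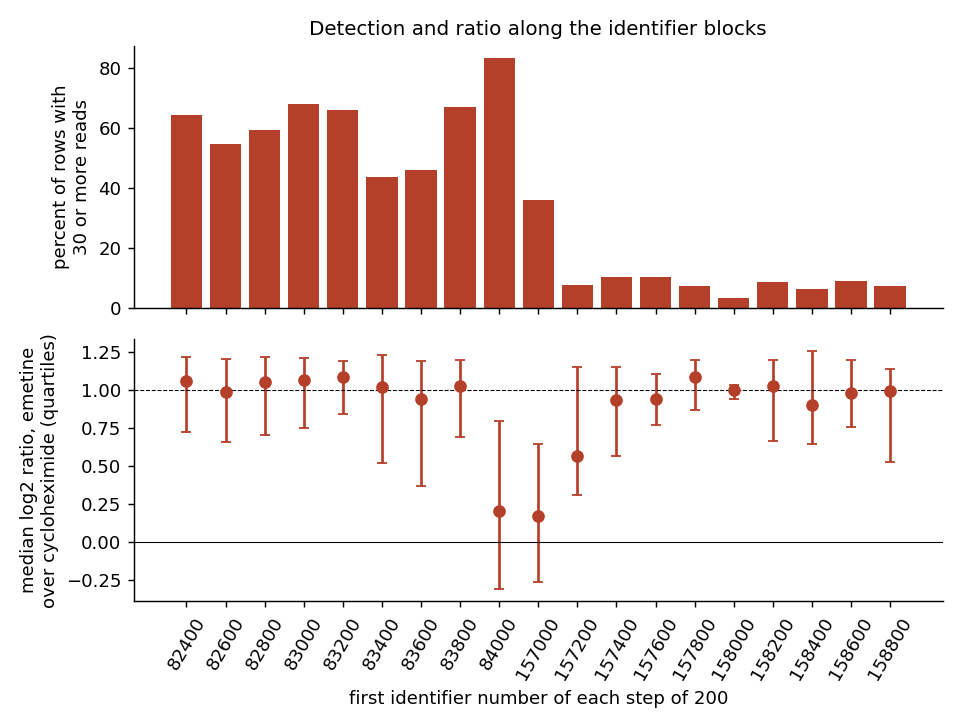
Percent of block rows with at least 30 summed reads (upper panel, bars) and median log2 ratio of emetine over cycloheximide with quartiles (lower panel) in steps of 200 identifier numbers. The step from 84000 and the first step of the late block, which hold the stretches with coding rows, have medians of 0.20 and 0.17, and the detected share is low in every later step.

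The extremes in either direction were rows with few reads. Among block rows with at least 100 reads, the highest ratio was that of ENSMUST00000082807. It had 103 reads with emetine and 46 with cycloheximide, 3.93-fold higher (interval 2.75 to 5.70). ENSMUST00000083048 had 94 reads with emetine and 43 with cycloheximide, 3.84-fold higher (interval 2.65 to 5.65). These intervals overlap widely, so the order of the pair is not resolved at this depth.

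The lowest ratio was that of ENSMUST00000158194, with 20 reads with emetine and 101 with cycloheximide, 2.87-fold lower (interval 1.77 to 4.90). ENSMUST00000157017 had 59 reads with emetine and 215 with cycloheximide, 2.07-fold lower (interval 1.55 to 2.82). Its identifier lies in the stretch with coding rows. They were the only block rows with 100 or more reads that were 2-fold lower with emetine.

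Under 100 reads, 54 of 142 block rows (38.0%) passed 2-fold upwards with emetine and 9 (6.34%) downwards. In this bin 19.8% of the other rows passed upwards and 13.4% downwards, and for coding regions the shares were 16.3% and 19.4%. All 11 block rows that were at least 4-fold higher (1.42%) were in this range, and no block row was 4-fold lower. The same call was made for 0.467% of the other rows upwards and 0.701% downwards, and for 0.395% and 0.673% of all features. The largest difference rested on 33 reads with emetine and 1 with cycloheximide, with an interval of 9.71 to 2359-fold.

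Rows at the minimum varied widely. The 4 rows with exactly 30 summed reads had log2 ratios from -0.62 to 3.72, and the 3 rows with 29 reads, just outside, from -1.74 to 2.62. Taken as a sum, the 333 block rows with 1 to 29 reads had 1232 reads with emetine and 1473 with cycloheximide. They were 1.47-fold higher with emetine (interval 1.36 to 1.59). The 6556 other rows of that size had 22595 reads with emetine and 40421 with cycloheximide, 0.982-fold (interval 0.966 to 0.998).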

How the data were processed

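The authors deposited raw counts of reads, whole numbers for each transcript and each coding region, with 1 file per library. The submitters' processing notes name CASAVA 1.8, Bowtie2 2.0.6 and TopHat2 2.0.7, with no role stated. No source used here gives the counting tool, the annotation release or how reads with several matches were treated. Depth is known only as the sums of counts in the report.

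A row was taken as lacking a coding region where either file lists none. Rows with 30 or more reads over both libraries were compared, without a test. Members and settings were chosen with earlier results of these data known. Rows to be described were the 10 most abundant, the 2 highest and 2 lowest ratios among rows with at least 100 reads, and rows at the minimum. Sets with like counts, the ranges of log2 ratio around them, rows 11 to 31 and the stretches with coding rows were added after their values were seen. Alternatives changed the scaling (total counts, or TMM from edgeR 4.0.16), the minimum, the prior, the fold and the treatment of repeated counts. Python 3.11.15 with pandas 2.3.3 and scipy 1.17.1 was used. The calculation was also run on simulated counts with 4-fold changes, for rows with at least 100 reads. That run does not cover rows near the minimum of 30 reads, changes near 2-fold or repeated counts.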

Additional observations from a re-analysis of the deposited data

How the results depend on the processing

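No paired analysis was possible because there is a single library for each inhibitor. The median log2 ratio of block rows stayed above 0, and above that of the other rows without a coding region, under every alternative run. The median was 1.03 with total counts, which shift every ratio by 0.047, 1.06 with at least 500 summed reads and 0.87 with no minimum beyond 1 read. The gap to the other rows was 1.04 with at least 500 reads and 0.83 with no minimum beyond 1 read. The number of block rows at least 2-fold higher was 374 of 772 (48.4%) with the main settings. It was 248 of 440 (56.4%) with at least 500 reads, 571 of 772 (74.0%) at 1.5-fold and 11 of 772 (1.42%) at 4-fold. TMM scaling gave 342 of 772 (44.3%) and total counts 400 of 772 (51.8%). The number at least 2-fold lower was 31 of 875 with at least 10 reads, 2 of 630 with at least 100 and 0 of 440 with at least 500. It was 26 of 951 with at least 1 read in each library and 138 of 1105 with no minimum beyond 1 read. Of 772 rows it was 21 at 1.5-fold and 0 at 4-fold. Beyond the main settings and 4-fold, no like share of the other rows or of all features was worked out. The counts under those alternatives are therefore not set against a background. The share of reads taken by block rows was 7.04% with emetine and 4.15% with cycloheximide of all transcript counts. Without the 10 leading block rows it was 9.46% with emetine and 5.29% with cycloheximide. Without the 10 leading rows of both classes it was 10.6% with emetine and 5.61% with cycloheximide. With identical pairs counted once it was 14.6% with emetine and 9.46% with cycloheximide. That last setting merged exact repeats only, so rows with near-equal counts, among them the leading sets, were still each counted. Single libraries and unknown counting of repeated reads limit all values.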
